A study of Oryza sativa with 6 samples.

Results

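The response of rice roots to cadmium was measured on 3 of the 6 two-colour arrays of the series, those of roots exposed to 25 µM cadmium. On each array RNA of treated roots, labelled with Cy5, was compared with RNA of roots kept in water, labelled with Cy3, so that every probe gave a ratio of cadmium to water control. All roots came from 6-day-old seedlings of the cultivar TN-67 (Oryza sativa), and the labels call the 3 arrays biological replicates. The other 3 arrays, of roots exposed to 5 µM copper against water, show where the 2 responses differ. They also entered the probe filter and the fit, so every cadmium call rests in part on their spread. The labels used here do not state how long the roots were exposed, and the series title calls the responses early. Each array read 42418 probes for annotated loci or microRNA precursors, of 42477 non-control probes in all, and 23287 loci and 129 precursors passed the filter on dim probes.

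Cadmium is a toxic metal with no nutritional role in land plants. It binds thiol groups, displaces other metals from proteins and leads to misfolded proteins and to oxidative damage. Plants bind it with glutathione and with phytochelatins, peptides built from glutathione, and carry it into the vacuole, while chaperones hold or refold damaged proteins. In rice roots cadmium enters mainly by NRAMP5, a manganese transporter, and HMA3 moves it into the vacuole. The array files give locus numbers and no gene names, so the gene names below are background knowledge of those numbers and were not read from the data. Of the 292 loci given a name, 202 carry one that the RefSeq table also holds, and 193 of these 202 symbols lie there on the chromosome that the locus number states. Symbols that failed this check are not used, and the HSP90 and chitinase loci are called by their family alone. Names that the table does not hold, HMA3, PCS1 and GSH1 among them, could not be checked and are used unchecked.

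Signals well above background came from 77.0% to 79.5% of probes for cadmium RNA and from 76.2% to 80.0% for control RNA on these 3 arrays, and 0 spots were saturated. Cadmium arrays 2 and 3 shared a slide and correlated at 0.95 across genes, while array 1, on a slide of its own, correlated with them at 0.83 and 0.80. In the control channel the root markers RCc3, LSI1, LSI2 and PIN2 were well above background on all 3 cadmium arrays, with RCc3 at spot signals between 68755.5 and 112870, whereas NRT2.1 was on none. The leaf genes for the small subunit of Rubisco and for chlorophyll-binding proteins gave control signals between 80 and 527, while LSI2 gave 409 to 1752. Some leaf probes were also well above background on all 3 cadmium arrays, among them most probes of the chlorophyll-binding gene Os09g0346500. Of the 3 tested leaf genes 1 rose, Os12g0292400 at 2.16, 1.35 and 1.08, and of the 4 tested root markers RCc3 rose, at 1.21, 0.72 and 0.41, while LSI1, LSI2 and PIN2 fell. Of these 4 root calls that of LSI1 alone held in every fit that left out 1 array: RCc3 lost its call without cadmium array 1 or 2, LSI2 without cadmium array 1 or 2 or copper array 2 or 3, and PIN2 without cadmium array 2 or 3. The part of these shifts in other results was not tested. The dyes were not swapped, so a dye effect and a cadmium effect on a probe cannot be told apart, and in whole roots a change in the share of a cell type cannot be told from a change in RNA per cell.

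Cadmium changed many transcripts and the strong changes were nearly all rises. Of 23416 genes tested, 4936 rose (21.1%) and 3026 fell (12.9%), with limma and a Benjamini-Hochberg adjusted p under 0.05. At least 2-fold changes comprised 1225 rises (5.23%) and 126 falls (0.538%). A change of 4-fold or more was a rise in 467 genes (1.99%) and a fall in 0 (0%), and 57 genes rose at least 16-fold. The total of 7962 called genes (34%) was 4482 without cadmium array 2 and 5118 without cadmium array 3. A fit of the cadmium arrays alone called 6604 genes, 4348 as rises and 2256 as falls. Of the changes of at least 2-fold, 1184 rises and 113 falls were called in every fit that left out 1 array. The split between rises and falls depended on the scaling: with the scanner program's own log ratios, which put the median of all genes at -0.11 in place of 0.01, 4086 genes rose and 5715 fell, with 756 falls of 2-fold or more and 47 of 4-fold or more. The direction of all 1351 genes changed at least 2-fold was the same under each of these scalings.

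The highest rises belonged to class I small heat shock proteins, ATP-independent chaperones of the cytosol that hold unfolded proteins. Os03g0267000 gave log2 ratios of 7.87, 7.31 and 7.24 on arrays 1 to 3, and its neighbour Os03g0266900 gave 6.82, 6.50 and 6.30. All 3 arrays were close for both, and these were the loci with the largest and second largest rise in the whole set, 178-fold and 93.0-fold (standard errors of the log2 change 0.20 and 0.20, adjusted p 8.04e-07 and 1.36e-06). The next member of the chromosome 3 cluster, Os03g0267200, rose 10.1-fold, with 3.51, 3.23 and 3.29. For Os03g0266300 the ratios were 1.28, 2.51 and 2.96, array 1 lowest, a rise of 4.75-fold, and its other probes gave log2 changes between 1.20 and 4.43. On chromosome 1, Os01g0136000, with no cadmium array showing a control signal well above background, rose at least 3.02-fold. In all, 6 of the 7 tested class I loci rose, beside 21.1% of all genes. The median log2 change of the 7 was 2.25, beside 0.01 over all genes. Whether probes of one class I locus also read another was not tested. HSP16.9B (Os01g0136200), with 1.15, 0.63 and 0.10, lost its call without cadmium array 1 or array 2, at log2 changes of 0.37 and 0.62.

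Small heat shock proteins of other classes and compartments rose too, 7 of 7, beside 21.1% of all genes, with a median of 3.05. Each rise held in every fit that left out 1 array. The class II gene Os01g0184100 had ratios of 3.84, 4.87 and 5.15 and rose 24.6-fold (adjusted p 3.22e-05). Mitochondrial HSP24.1 (Os02g0758000) gave 3.48, 3.58 and 3.65, a rise of 11.9-fold with little spread. The plastid form HSP26.7 (Os03g0245800), its controls not well above background, rose at least 8.31-fold, with array 1 highest (3.81, 2.52 and 2.84). The smallest rise was that of HSP23.2 of the endoplasmic reticulum (Os04g0445100), 1.96-fold.

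Large chaperones use ATP to refold proteins or pull aggregates apart. Of these 8 of 11 rose and 1 fell, beside 21.1% and 12.9% of all genes, with a median of 1.68. In every fit that left out 1 array 7 of the rises held. The disaggregase HSP101 (Os05g0519700) had values on arrays 2 and 3 alone, 4.71 and 4.91, and rose 28.1-fold (n = 2, adjusted p 1.29e-05). An HSP70 locus, Os05g0460000, gave 6.00, 3.75 and 3.39, with array 1 far above the others. It rose 20.8-fold, and of its 3 control spots 1 was well above background. Another HSP70, Os01g0840100, rose 7.97-fold (3.18, 2.74 and 3.06), while Os11g0703900 was at -0.21, 0.10 and 0.28 and did not pass the test. Mitochondrial ClpB (Os02g0181900) rose 3.20-fold, with all 3 ratios between 1.65 and 1.70. The plastid ClpB, Os03g0426900, gave -0.41, -0.34 and -0.10. Its fall lost the call without cadmium array 1 or 2 or copper array 2 or 3. Of the HSP90 loci, Os08g0500700 rose 3.38-fold (1.58, 1.71 and 1.98). Os04g0107900 stood at 0.22 on its brightest probe, which was not past the threshold, although its 4 other kept probes gave log2 changes between 3.08 and 4.92, so its probes disagreed.

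Heat shock factors, the transcription factors that switch on chaperone genes, responded member by member. Of 16 tested, 11 rose and 1 fell, beside 21.1% and 12.9% of all genes. In every fit that left out 1 array 9 of the rises held. HsfA2a (Os03g0745000) gave 3.04, 3.62 and 3.67 on its brightest probe, a rise of 10.9-fold (adjusted p 3.16e-06), and its 4 other kept probes gave log2 changes from 0.35 to 3.05. The class B factors HsfB2b (Os08g0546800) and HsfB2a (Os04g0568700) rose 5.39-fold and 4.53-fold, with a log2 change of 1.01 on the other probe of HsfB2b. HsfA4d (Os05g0530400), the SPL7 gene of rice, rose 3.28-fold on its brightest probe, and its other kept probes gave log2 changes between 0.84 and 1.37. HsfB1 (Os09g0456800) fell, with -0.66, -0.36 and -0.42, and HsfA1 (Os03g0854500) and HsfA2b (Os07g0178600) were at 0.11 and -0.09 and not called, though HsfA1 was called at 0.31 without cadmium array 1. MBF1c (Os06g0592500), a transcriptional coactivator known from heat responses, was among the largest rises of all, with ratios of 4.73, 6.36 and 6.07 and array 1 lowest, 52.7-fold. Genes of the unfolded protein response of the endoplasmic reticulum moved less. The luminal chaperone BiP1 (Os02g0115900) gave 0.40, 0.40 and 0.70 and the stress factor bZIP50 (Os06g0622700) gave 0.86, 0.46 and 0.41. These 2 rises of 5 tested, beside 21.1% of all genes, were small, and that of BiP1 lost its call without cadmium array 2 or 3. The other 3 of 5, among them the sensor IRE1 and the disulfide isomerase PDIL1-1, were not past the threshold.

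**Figure D1:**
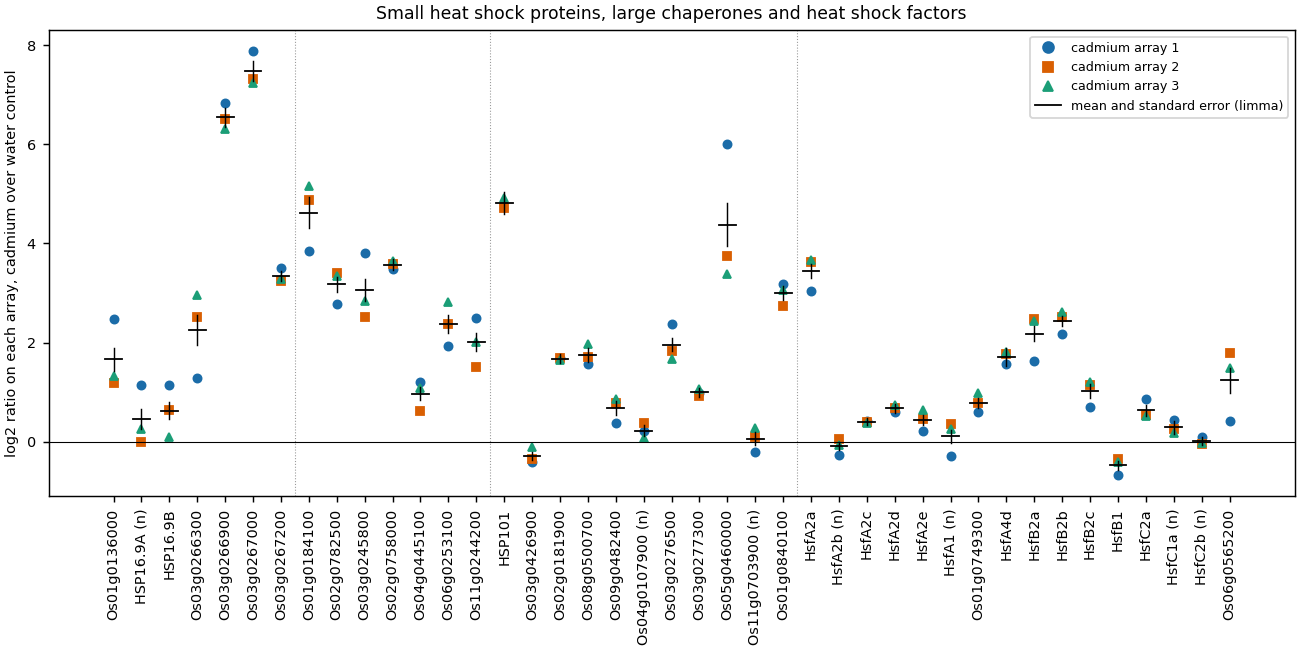
Log2 ratios of cadmium over water control (y axis) on each cadmium array for small heat shock proteins, large chaperones and heat shock factors (x axis, (n) for genes not past the threshold, dotted lines between lists). Horizontal bars are means and vertical bars standard errors of the fit; Os03g0267000 stands highest, at 7.47, and most members lie above 0 on all 3 arrays.

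Sulfate uptake and reduction, the route that supplies cysteine for glutathione, rose at nearly every step. The root sulfate transporter SULTR1;1 (Os03g0195800) gave 2.08, 3.12 and 3.59, array 1 lowest, a rise of 7.61-fold (adjusted p 1.11e-04). Both ATP sulfurylase loci, which activate sulfate, rose: Os04g0111200 4.11-fold and Os03g0743900 by 1.14 on the log2 scale. APR1 (Os07g0509800), which reduces the activated sulfate, rose most, 13.0-fold, at 2.88, 3.94 and 4.27. Sulfite reductase (Os05g0503300) followed at 2.02-fold. These 5 rises, of 6 tested genes, beside 21.1% of all genes, held in every fit that left out 1 array. The list's median was 1.59. The transporter SULTR1;2 (Os03g0196000) stood apart at -0.90, -0.59 and -0.16, a fall that lost its call without cadmium array 1 or 2 or copper array 3. Array 1 was the lowest of the 3 for every gene of this list. Os03g0196600, a serine acetyltransferase locus that makes the precursor of cysteine, was the highest gene of this route, with 4.75, 5.06 and 5.04, 31.0-fold, and was named from its rank among the 15 largest rises. The microRNA miR395 targets ATP sulfurylase and a sulfate transporter in plants. Its precursors rose in 20 of 22 cases, beside 21.1% of all genes, with a median of 0.47. The probes of this family read long transcripts, not the mature microRNA. Probes of one copy may also read others, which was not tested, so these 22 cannot be counted as separate measurements. Their values were not all alike, with osa-miR395o at 0.64 and osa-miR395u at 0.12.

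Glutathione synthesis rose at its first step and phytochelatin synthase did not. GSH1 (Os05g0129000), glutamate-cysteine ligase, gave 0.67, 1.00 and 0.97 and rose 1.84-fold (adjusted p 8.21e-04). PCS1 (Os05g0415200) was at -0.17, 0.36 and -0.01 and PCS2 (Os06g0102300) at -0.07, 0.24 and 0.24, both on either side of 0 and not past the threshold. One of 3 glutathione reductase loci, Os02g0813500, rose 1.43-fold and lost its call without cadmium array 2 or 3. Over this list 2 of 6 tested genes rose, beside 21.1% of all genes.

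The tau class glutathione S-transferases on chromosome 10, enzymes that join glutathione to other compounds, formed one of the strongest groups. Of 19 tested loci, 15 rose and 1 fell, beside 21.1% and 12.9% of all genes, and the list's median was 2.06. In every fit that left out 1 array 12 of the rises held. Os10g0527400 reached 6.25, 5.89 and 6.01, 66.2-fold. Os10g0525600 gave 5.85, 5.30 and 4.20, array 3 lowest, 34.7-fold. These 2 loci were among the 15 largest rises of all, while GSTU3 (Os10g0528400) and GSTU4 (Os10g0528300) rose 4.18-fold and 2.14-fold. Os10g0529300 went the other way, at -0.56, -0.62 and -0.77, and Os10g0528900, Os10g0529800 and Os10g0530400 were not called. Other probes of Os10g0530400, at log2 changes of 0.57 and 0.54, were past the threshold in a fit of all kept probes, and that at 0.45 was not. Close copies of this cluster could cross-hybridise, so single loci are uncertain.

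**Figure D2:**
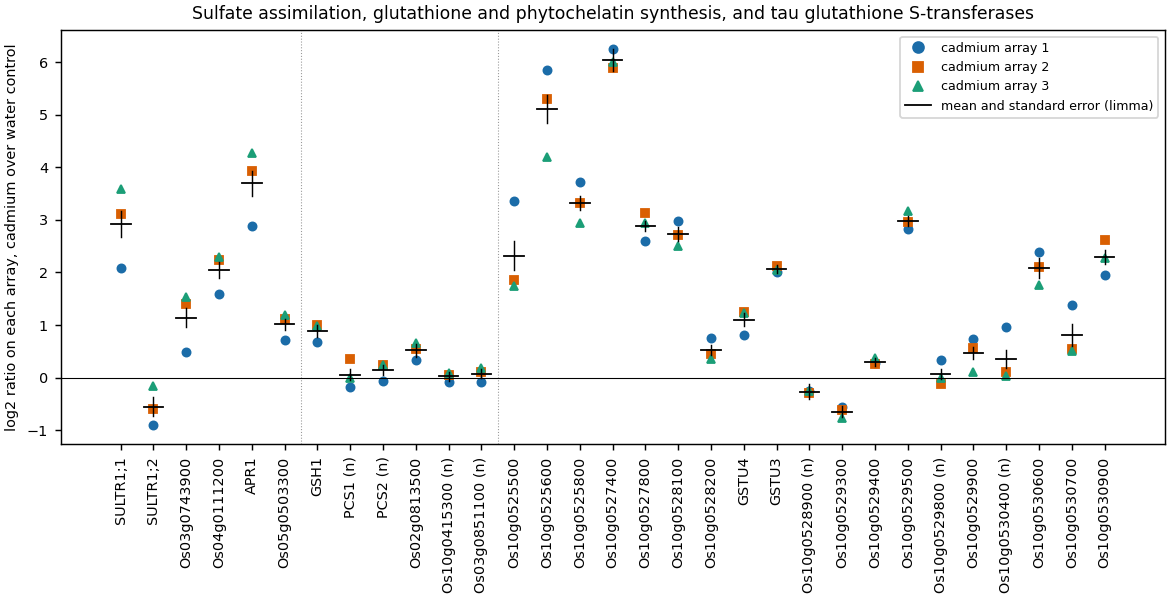
Log2 ratios of cadmium over water control (y axis) on each cadmium array for sulfate assimilation, glutathione and phytochelatin synthesis, and the tau glutathione S-transferases of chromosome 10 (x axis, (n) for genes not past the threshold). Bars are means and standard errors of the fit; APR1 reaches 3.69 and Os10g0527400 6.05, whereas PCS1 and PCS2 lie at 0.06 and 0.14.

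Metallothioneins, small cysteine-rich proteins that bind metals, were split. Of 12 tested, 5 rose, beside 21.1% of all genes, and 7 were not called, with a median of 0.41. The rises lay in the chromosome 12 cluster and at 1 locus of chromosome 1: Os12g0568200 gave 1.88, 1.53 and 1.87 (3.38-fold) and Os12g0567800 gave 0.79, 1.70 and 1.98 (2.81-fold). Os12g0570700 rose 2.18-fold and Os01g0149800 1.89-fold, while Os12g0571000 lost its call without cadmium array 1 or 3. On chromosomes 3, 5 and 11 the loci Os03g0288000, Os05g0111300 and Os11g0704500 stayed between -0.77 and 0.38 on every array.

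Genes known for moving metals gave mixed results. The uptake transporter NRAMP5 (Os07g0257200) gave 0.33, 0.15 and 0.12 and HMA3 (Os07g0232900) gave -0.21, -0.23 and -0.24. Neither was past the threshold, with adjusted p of 0.223 and 0.0619, although HMA3 was below 0 on all 3 arrays and its fall was called without copper array 1. NRAMP1 (Os07g0258400), an iron transporter that also carries cadmium, fell 1.64-fold, with -0.37, -0.95 and -0.82. Over the list 6 of 16 rose, beside 21.1% of all genes, 1 fell and 9 were not called, and the 6 rises became 3 without cadmium array 3, while without copper array 1 the 1 fall became 3. The ABC transporter gene PDR9 (Os01g0609300) rose most, 6.88-fold, at 3.33, 2.68 and 2.33. IRT2 (Os03g0667300), an iron and zinc transporter, rose 2.28-fold with 3 like ratios, 1.13, 1.16 and 1.26. The vacuolar pump ABCC1 (Os04g0620000) and the cadmium-binding defensin CAL1 (Os02g0629800) were at 0.10 and 0.25 and were not called, except CAL1 without copper array 1. The copper chaperone gene ATX1 (Os08g0205400) rose 1.34-fold (0.46, 0.41 and 0.40).

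Iron acquisition was uneven between arrays. The nicotianamine synthase genes NAS1 (Os03g0307300) and NAS2 (Os03g0307200) gave -0.96, -1.16 and 0.71 and -0.80, -1.04 and 0.79, above 0 on array 3 and below 0 on the other 2. The iron transporter YSL15 (Os02g0650300) did likewise, at -1.22, -0.49 and 0.58, and none of these 3 was called. Without array 3 all 3 were called as falls, at -1.06, -0.92 and -0.86 in that order. IRO3 (Os03g0379300), a negative regulator of the iron deficiency response, fell 1.39-fold in a call that held in every fit that left out 1 array. NAS3 (Os07g0689600) fell too, with -1.33, -0.41 and -0.30, but lost its call without cadmium array 2 and came to -0.36 without array 1. Of the 10 tested genes 3 fell and 2 rose, beside 12.9% and 21.1% of all genes, and in every fit that left out 1 array 1 fall and 0 rises held. The rises were those of the ferritins, which store iron, at 0.34 (n = 2) and 0.38, and the call of the first was lost without copper array 2 or 3 and that of the second without cadmium array 2 or 3.

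Enzymes that remove superoxide and hydrogen peroxide barely moved, in contrast to the alternative oxidases. Of 14 superoxide dismutases, ascorbate peroxidases and catalases, 1 rose, 1 fell and 12 were not called, with a median of -0.04. Among all genes 21.1% rose and 12.9% fell. Catalase CATA (Os02g0115700) fell 1.87-fold, at -1.62, -0.61 and -0.48, and without array 1 its log2 change was -0.55. APX1 (Os03g0285700) was at 0.32, 0.45 and 0.48, a rise of 1.34-fold that lost its call without cadmium array 2 or 3. Alternative oxidase, which passes electrons to oxygen in mitochondria without pumping protons, rose in 3 of 4 loci, beside 21.1% of all genes. AOX1b (Os04g0600300) gave 4.98, 4.78 and 4.74, 28.4-fold, and AOX1a (Os04g0600200) 2.27, 2.29 and 2.22, 4.80-fold. The 3 arrays were close for both. Alcoholic fermentation makes ethanol when respiration is short of oxygen. Its genes and the hemoglobin gene rose in 5 of 5 cases, beside 21.1% of all genes. Alcohol dehydrogenase ADH1 (Os11g0210300) was at 2.50, 2.69 and 2.91 (6.49-fold) and hemoglobin 1 (Os03g0233900) at 3.28, 3.07 and 2.85 (8.38-fold). The pyruvate decarboxylase genes PDC1 and PDC2 lost their calls without cadmium array 2 or 3, which left 3 rises.

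**Figure D3:**
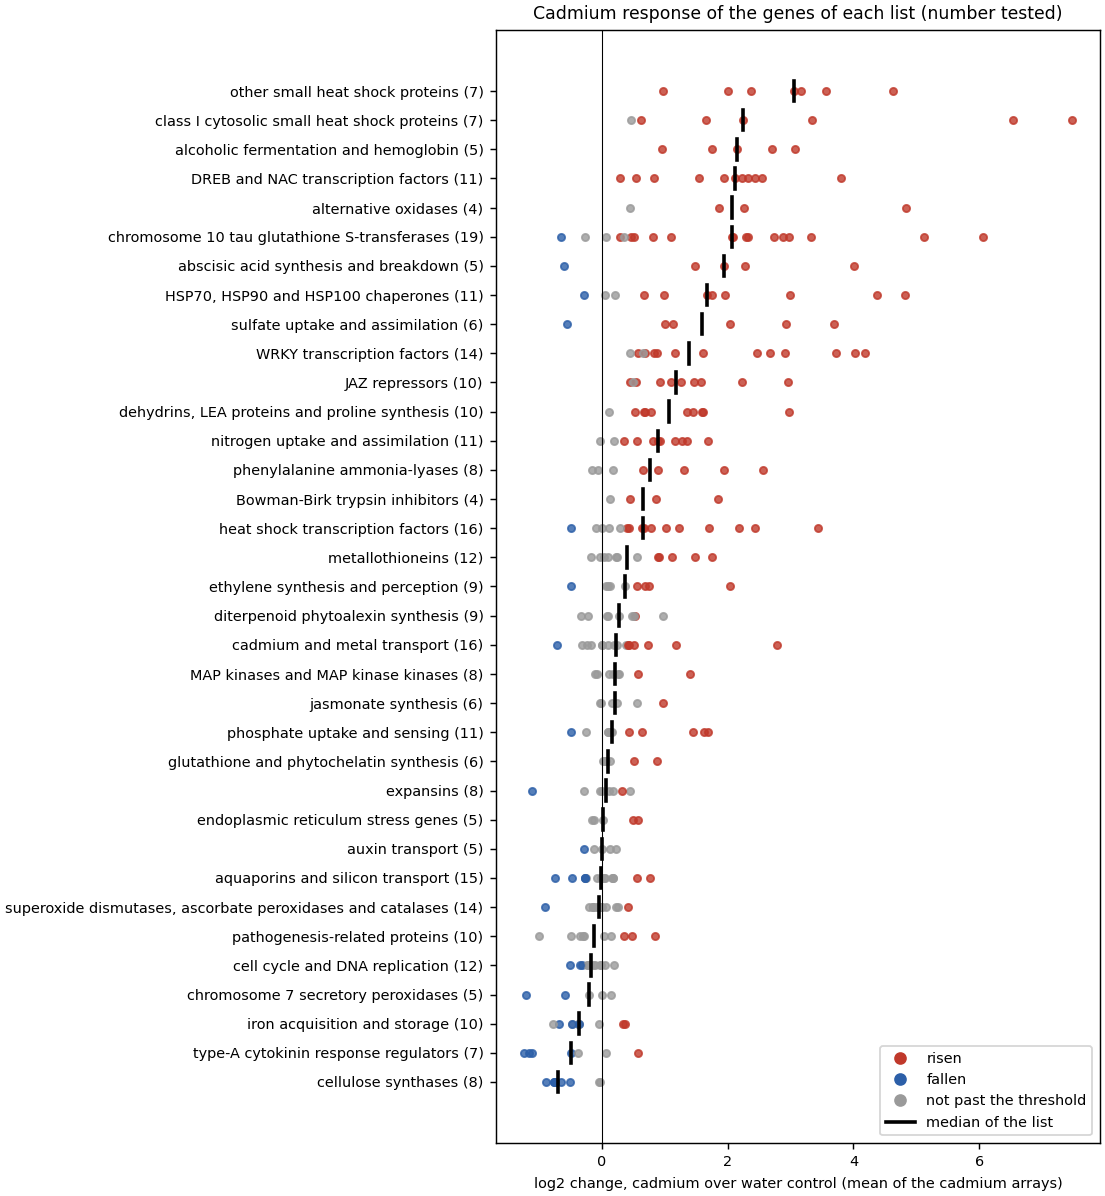
Mean log2 change of each tested gene with cadmium (x axis, points) by list (y axis, number tested in brackets), coloured by whether the gene rose, fell or did not pass the threshold; black bars are list medians. Small heat shock proteins hold the highest medians, 3.05 and 2.25, and cellulose synthases the lowest, -0.70.

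Stress transcription factors rose in nearly every case. All 11 tested DREB and NAC genes, regulators of drought, salt and cold responses, rose, beside 21.1% of all genes, with a median of 2.12. In every fit that left out 1 array 9 of these rises held. NAC4 (Os01g0816100) gave 3.73, 4.02 and 3.65 (13.9-fold), SNAC1 (Os03g0815100) 2.79, 2.45 and 2.05 (5.40-fold) and DREB1A (Os09g0522200) 2.05, 3.13 and 2.49 (5.88-fold). Of 14 WRKY genes, most of them regulators of defence, 12 rose, beside 21.1% of all genes, with a median of 1.38. WRKY10 (Os01g0186000) reached 18.2-fold, WRKY71 (Os02g0181300) 16.3-fold and WRKY28 (Os06g0649000) 13.2-fold, and WRKY70 (Os05g0474800), not well above background in the cadmium controls, rose at least 6.39-fold. WRKY76 (Os09g0417600) was at 1.21, 0.65 and 0.09 on its brightest probe, which was not called with all arrays, though it was without copper array 1. Its other kept probes gave log2 changes of 0.68 and 0.71, both past the threshold in a fit of all kept probes, and 0.42, which was not. WRKY62 (Os09g0417800), at 1.18, 0.49 and 0.06, lost its call when any 1 array but cadmium array 3 was left out. For both genes array 1 was highest on the brightest probe. Zinc finger gene ZFP36 (Os03g0437200) was among the 15 largest rises, at 5.46, 5.27 and 4.41 and 33.0-fold.

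Among hormone genes, abscisic acid stood out. NCED enzymes make its precursor, and the 3 tested all rose: NCED5 (Os12g0617400) gave 4.88, 3.91 and 3.25, with array 1 highest, 16.2-fold, and its control was well above background on 1 array. NCED3 (Os03g0645900) rose 2.80-fold, and NCED4 (Os07g0154100), whose controls were not well above background, at least 4.87-fold. ABA8ox1 (Os02g0703600), which breaks the hormone down, rose 3.84-fold, whereas ABA8ox2 (Os08g0472800) gave -0.26, -0.62 and -0.90, a fall that was lost without cadmium array 2 or 3. Dehydrin, late embryogenesis and proline genes rose in 9 of 10 cases, beside 21.1% of all genes. In every fit that left out 1 array 8 of these rises held. LEA3 (Os05g0542500) had 3.45, 2.52 and 2.97 and rose 7.89-fold.

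JAZ repressors of jasmonate signalling rose in 9 of 10 cases, beside 21.1% of all genes, with a median of 1.18. In every fit that left out 1 array 8 of these rises held. Os10g0392400 led them at 7.75-fold (3.20, 3.01 and 2.65). The enzymes that make jasmonate did not follow. Allene oxide synthase AOS1 (Os03g0767000) was the only 1 of 6 called with all arrays, with ratios from 0.72 to 1.12 and 1.97-fold, and 3 of 6 were called without copper array 1. AOC (Os03g0438100) and OPR7 (Os08g0459600), which act after it, were at -0.03 and -0.01. For ethylene, the gene ACS2, whose enzyme makes its precursor, (Os04g0578000) rose 4.11-fold (2.39, 2.05 and 1.68) and the signalling gene EIN2 (Os07g0155600) fell 1.40-fold (-0.50, -0.55 and -0.42). The kinase MPK3 (Os03g0285800) rose 2.65-fold with 3 like ratios, 1.39, 1.48 and 1.35. In all 2 of the 8 tested MAP kinase genes rose, beside 21.1% of all genes, and 6 were not called.

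Of 10 pathogenesis-related genes 3 rose, beside 21.1% of all genes, and 0 fell. The 3 were chitinase loci, and 0 rises were left without cadmium array 2. One of them, Os05g0399300, stood at 0.36 on its brightest probe and at -0.46 and -0.74 on the others, and was negative with the program's processed ratios and with the mean of its probes, so its direction is not settled. PBZ1 (Os12g0555500) gave -0.72, -0.36 and -1.91 and PR1a (Os07g0129200) 0.08, -0.31 and -0.65, wide apart and not past the threshold. The diterpenoid phytoalexin genes gave 1 rise in 9, beside 21.1% of all genes. That rise was KSL4 (Os04g0179700), not well above background in any cadmium control and not called without cadmium array 2 or 3 or copper array 3. At the head of the phenylpropanoid route, 5 of 8 phenylalanine ammonia-lyases rose, beside 21.1% of all genes. In every fit that left out 1 array 4 of these rises held. Os02g0626600 rose the most, 5.94-fold (2.64, 2.83 and 2.25). Secretory peroxidases of chromosome 7 included 2 falls in 5, beside 12.9% of all genes. These were Os07g0677300 by 2.29-fold (-1.72, -0.93 and -0.94) and Os07g0676900 by 1.50-fold. Of 4 Bowman-Birk trypsin inhibitors, proteins that block digestive proteases, 3 rose, beside 21.1% of all genes. In every such fit 2 of the 3 held, and Os01g0124100 rose 3.61-fold (2.09, 1.86 and 1.61).

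Nutrient uptake genes other than those of sulfur also rose in part. Of 11 nitrogen genes 9 rose, beside 21.1% of all genes, with a median of 0.89, and 6 of the 9 held in every fit that left out 1 array. AMT1;1 and GS1;2 lost their calls without any 1 cadmium array, AMT1;1 also without copper array 3, and AMT1;2 without cadmium array 2. The nitrate transporter NRT2.2 (Os02g0112600) gave 1.18, 1.80 and 2.11 (3.24-fold), its partner NAR2.1 (Os02g0595900) 1.20, 1.35 and 1.51, and the ammonium transporter AMT1;3 (Os02g0620600) 0.80, 1.30 and 1.42. Glutamate synthase NADH-GOGAT1 (Os01g0681900) rose 2.42-fold. Phosphate transporters PT1, PT4 and PT8 (Os03g0150600, Os04g0186400 and Os10g0444700) rose 2.74-fold, 3.22-fold and 3.09-fold, while the phosphate sensors SPX1, SPX2 and SPX3 were not called. Other probes of PT4 gave log2 changes between -0.22 and 1.36, and the other probe of PT8 gave 0.48.

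Falls were smaller and formed fewer groups. Cellulose synthases, which spin the main wall polymer, fell in 6 of 8 cases, each in every fit that left out 1 array, against 12.9% of all genes. CESA4 (Os01g0750300), CESA7 (Os10g0467800) and CESA9 (Os09g0422500), the genes of the secondary wall, gave -0.94, -0.66 and -1.03, -0.72, -0.73 and -0.80 and -0.90, -0.65 and -0.69, falls of 1.84-fold, 1.68-fold and 1.68-fold. The primary wall genes CESA1, CESA3 and CESA8 (Os05g0176100, Os07g0424400 and Os07g0208500) fell 1.57-fold, 1.41-fold and 1.69-fold. CESA5 and CESA6 lay near 0, between -0.12 and 0.04 on every array. The list's median was -0.70. The cell wall loosening gene EXPB3 (Os10g0555900) fell 2.16-fold, with -1.43, -0.80 and -1.10. It was the 1 fall, with 1 rise, among 8 expansins, beside 12.9% and 21.1% of all genes. Of 5 auxin transporters 1 fell, beside 12.9% of all genes. This was PIN2 (Os06g0660200), at -0.22, -0.37 and -0.25, a call lost without cadmium array 2 or 3.

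Type-A response regulators, cytokinin-induced repressors of cytokinin signalling, fell in 4 of 7 cases, and 1, RR6, rose, beside 12.9% and 21.1% of all genes. RR10 (Os12g0139400) gave -0.89, -1.80 and -1.02, RR9 (Os11g0143300) -0.51, -1.81 and -1.16 and RR2 (Os02g0557800) -0.52, -1.24 and -1.54. All were below 0 on each array, with falls of 2.36-fold, 2.23-fold and 2.14-fold that held in every fit that left out 1 array, unlike those of RR1 and RR6. RR9 and RR10 are close copies that probes may not separate. The silicon channel LSI1 (Os02g0745100), a marker of the root, fell 1.67-fold, at -1.23, -0.71 and -0.28, array 1 lowest. Of 15 aquaporin and silicon genes 4 fell and 2 rose, beside 12.9% and 21.1% of all genes, and the 4 falls became 1 without cadmium array 2 and 2 without copper array 2 or 3. Among 12 cell cycle and replication genes 0 rose and 3 fell, beside the same 21.1% and 12.9%, and there were 0 falls without cadmium array 2 and 1 without cadmium array 3 or copper array 2 or 3.

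**Figure D4:**
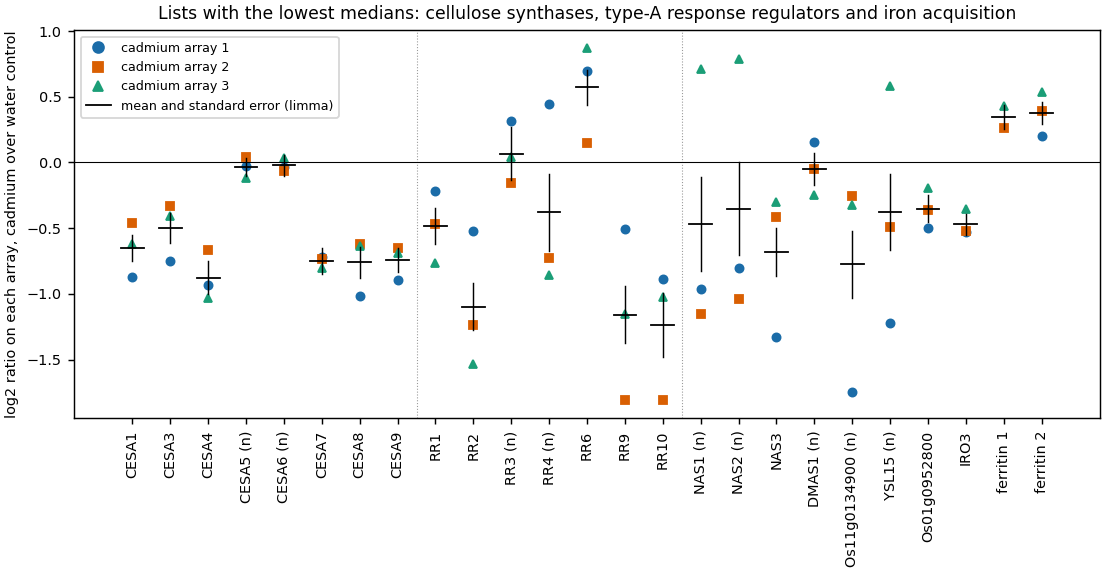
Log2 ratios of cadmium over water control (y axis) on each cadmium array for cellulose synthases, type-A response regulators and iron genes (x axis, (n) for genes not past the threshold). Bars are means and standard errors of the fit; CESA4 lies at -0.88 with all arrays below 0, and NAS1 and NAS2 lie above 0 on array 3 alone.

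Of all falls, the largest was that of Os05g0217700, at -2.48, -1.41 and -1.71 and 3.64-fold, followed by Os01g0703300 at -1.90, -1.55 and -1.80. The locus numbers of these 2 are not given a name here. These ranks are those of the brightest probes, and the other kept probe of Os01g0703300 gave a log2 change of -0.85. Of the 15 largest rises, 7 are named above and 8 carry no name here. The highest of these 8 were Os08g0177400, at 7.19, 5.87 and 5.14 with array 1 highest, and Os08g0155900, at 5.63, 5.93 and 5.94. Many genes that rose at least 4-fold lay next to each other, a count that was not tested: 83 of 466 such loci (17.8%) had a neighbouring tested locus that also rose at least 4-fold, beside 817 of the 22821 other loci (3.58%). There were 8 runs of 3 or more, among them the class I heat shock genes Os03g0266900 to Os03g0267200, the tau transferases Os10g0525500 to Os10g0525800, and 4 loci from Os03g0820200 to Os03g0820500 that include the zinc finger gene ZFP182 (Os03g0820300), with log2 changes of at least 2.59. Os05g0469600, the PDC1 gene, began another run. Whether probes of neighbouring copies read each other's transcripts was not tested. Of 125 loci that fell at least 2-fold, 0 had a tested neighbour that fell so far.

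Most changes of microRNA precursors were small, and these probes read long transcripts. Of 129 tested, 62 rose and 2 fell, beside 21.1% and 12.9% of all genes, with a median log2 change of 0.28. The miR395 copies, which cannot be counted as separate measurements, made up 20 of these 62 rises. The highest was osa-miR418, at 2.91, 1.96 and 1.14, whose control was well above background on 1 cadmium array, followed by osa-miR416, at 1.72, 0.79 and 0.58, both highest on array 1. Then came osa-miR169i at 0.80, osa-miR442 at 0.73 and osa-miR156d at 0.67. The falls were those of osa-miR171h, with -1.66, -0.79 and -1.47, and osa-miR171f, with -0.90, -0.45 and -0.87, both below 0 on every array.

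Cadmium and copper were then compared within 1 fit. The series lists 3 control replicates for 6 arrays, so the arrays of both metals may share control RNA, and doses differed, so only the difference between metals was tested. With cadmium 953 genes were higher than with copper (4.07%) and 1540 lower (6.58%), 2493 in all. With the replicate number as a block 1587 were higher. The total was 1315 and 1374 without cadmium array 2 or 3 and 1250 and 1248 without copper array 2 or 3, while it was 5863 with the slide as a random block, 6074 on the slide that held both metals and 3812 with the replicate number as a block. Genes of sulfur use, glutathione transferases and chaperones were among those higher with cadmium. For the tau transferases 13 of 19 were higher and 0 lower, beside 4.07% and 6.58% of all genes. In every fit that left out 1 array 9 of the 13 held. The list medians were 2.06 with cadmium and 0.45 with copper. For the non-class-I small heat shock proteins 7 of 7 were higher, beside 4.07% of all genes, and 5 of them in every such fit. Their medians were 3.05 and 0.68. APR1 (Os07g0509800) was at 3.69 and 1.57, a difference of 2.12 (adjusted p 0.00669), and Os03g0196600 at 4.95 and 1.36. Of 6 sulfate genes 4 were called higher with cadmium, beside 4.07% of all genes, each in every fit that left out 1 array.

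Several defence genes were lower with cadmium than with copper. Jasmonate synthesis was lower with cadmium in 5 of 6 genes, beside 6.58% of all genes, and in 3 of 6 without copper array 2 or 3. Its list medians were 0.21 and 1.89. Of 14 WRKY genes 5 were called lower with cadmium and 3 higher, beside 6.58% and 4.07% of all genes. The 5 lower calls and 2 of the 3 higher ones held in every fit that left out 1 array. Among the lower ones, WRKY45 (Os05g0322900) was at 0.69 with cadmium and 3.33 with copper (adjusted p of the difference 1.16e-04), and WRKY76 (Os09g0417600) at 0.65 and 5.08. Pathogenesis-related genes had medians of -0.12 and 1.53. Of these 3 of 10 were called lower, beside 6.58% of all genes, and 7 of 10 without copper array 1. The ABC transporter ABCG43 (Os07g0522500) gave 0.05, 0.02 and -0.03 with cadmium and a mean of 1.94 with copper (adjusted p 2.32e-04). Metallothionein medians were 0.41 and 0.78. Of the 12 genes 1 was called lower with cadmium, beside 6.58% of all genes, a call lost in some fits that left out 1 array. Among all genes 10.6% were called different between the metals. The fermentation and hemoglobin genes had 1 of 5 and the phosphate genes 0 of 11.

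**Figure D5:**
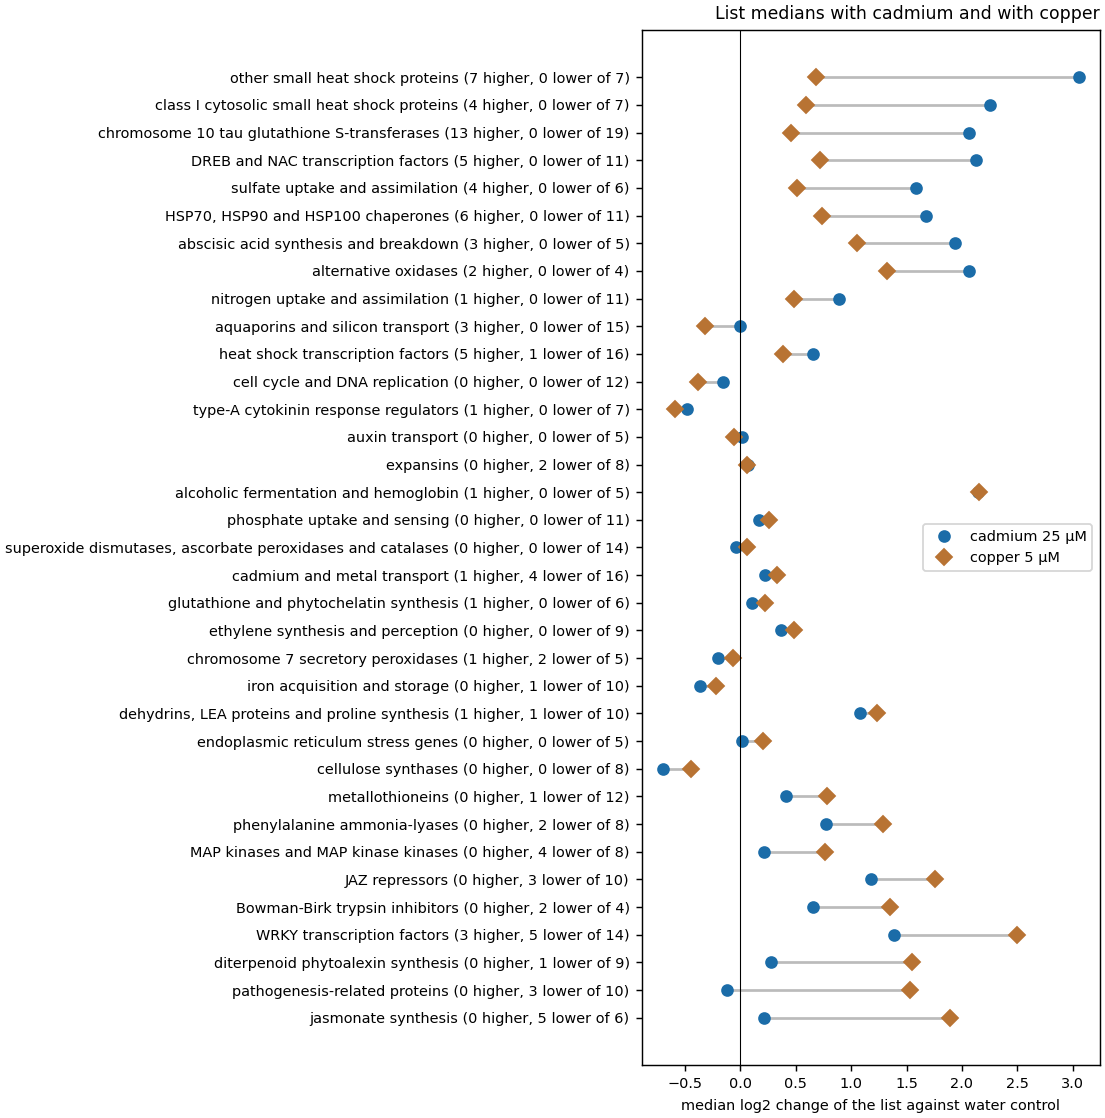
List medians of the log2 change against water (x axis) with cadmium (circles) and copper (diamonds), lists ordered by the difference (y axis, in brackets the members called higher or lower with cadmium than with copper). Small heat shock proteins and tau transferases lie to the right with cadmium, 2.25 against 0.60 for class I, and jasmonate synthesis lies at 0.21 against 1.89.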

How the data were processed

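Total RNA was hybridised on 6 two-colour Agilent arrays with treated roots in Cy5 and water controls in Cy3. The deposited spot intensities and log10 ratios are those of Feature Extraction 10.7.1.1, per the file headers, and the authors' deposited series table holds log2 ratios of the same arrays, used as an alternative. Median intensities were corrected with normexp (offset 50), which makes folds of dim spots smaller, and normalised by loess, with control and marked spots at weight 0. Marked spots were then removed. A probe was kept if well above background in 1 channel on all 3 arrays of either metal, and the brightest kept probe stood for a gene. Other kept probes of a gene could differ from it in size and in call, and they are given for some genes only.

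Changes were tested with limma 3.58.1 in R 4.3.3 over all 6 arrays and 23416 genes, with Benjamini-Hochberg adjustment and a threshold of 0.05. This fit took the arrays as independent, although 4 of the 6 shared a slide. The number of arrays limits the precision, with a median standard error of 0.0941 for the log2 change with cadmium. The labels call replicates biological but do not say what was grown separately. Deviations of cadmium and copper arrays of the same number correlated at 0.37, 0.24 and 0.27, so the replicate number was tried as a block. On simulated data for cadmium against water, in 22533 genes with 50 changed per size, the fit recovered 86% of true log2 changes of -1, 92% of 1, 100% of -2 and 98% of 2. The simulated noise was independent between arrays, and far fewer genes changed than the 34% called in the data. These rates therefore need not hold for the data. Where no cadmium array had a control signal well above background, the fold is a lower bound against the dimmest probe well above background.

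Members and gene lists were chosen with earlier results of these data known. List members could be named, with the 15 largest rises and falls and the 5 highest and all fallen microRNA precursors. MBF1c, ZFP36, ZFP182 and the serine acetyltransferase were given their names after their values were seen. Names were compared with the RefSeq table of ASM3414082v1, none of whose coordinates are used. Alternatives covered background, signal, scaling, filter, probe choice, marked spots, slide, replicate block and each array left out.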

Additional observations from a re-analysis of the deposited data

How the results depend on the processing

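Of 6366 values of named genes over all alternatives, 5952 kept their direction and their side of the threshold, 258 lost a call, 153 gained one and 3 changed direction. All 3 belonged to the chitinase locus Os05g0399300, at 0.36, which came to -0.56 with the program's processed log ratios, -0.50 with these centred on the median and -0.28 with the mean of its kept probes. Genes changed at least 2-fold numbered 1351, and 2529 with the processed ratios, 2530 with these centred and 2534 with the authors' deposited series table, whose calls were rises in 41.7%, 51.1% and 41.5% of cases against 62.0%. Median centring in place of loess gave 56.7%. With 1 array left out, cadmium called between 4482 and 9006 genes and the difference between metals between 1248 and 3040. That difference had 2493 calls, 5863 with the slide as a random block, 6074 on the slide that held both metals and 3812 with the replicate number as a block. With that block 1587 genes were higher with cadmium in place of 953, and 2225 lower in place of 1540, while cadmium against water called 10336 genes in place of 7962. The slide block, with a fitted correlation of 0.66 within a slide, called 6527 genes for cadmium against water. Under it 25 of 354 named genes lost a call and 5 gained one. The cause of these shifts was not tested. Low signal leaves some folds as bounds: 23 of the 467 genes that rose at least 4-fold had no control signal well above background with cadmium.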
